A study of Mus musculus with 2 samples.

Results

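Lipogenesis, the making of fatty acids from carbohydrate, was followed through 8 genes in liver RNA: Thrsp, Fasn, Acaca, Acacb, Acly, Me1, Mlxipl and Pklr. They were found as probe sets whose annotation gave exactly 1 gene symbol, with that symbol among the 8. This gave 16 probe sets of 20380, for 8 genes of 12394. Each gene was represented by its brightest probe set over both arrays, and every other probe set is shown beside it. All mice were apolipoprotein E-deficient males on a C57BL/6J/OLA129 background, with an age of 2 months in the labels, and so clear remnant lipoproteins poorly. The control pool drank 1% (v/v) glycerol in water with chow for 10 weeks. The squalene pool had the same chow and glycerol drink for 10 weeks, with squalene added to give 1 g per kg per day. Each pool was hybridised to 1 array, so there are no replicates, no test between pools is possible, and all values describe these 2 pools of livers. The sources used here do not state how many mice were pooled, whether they had fed, or the hour of collection.

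In the liver, glycolysis supplies pyruvate to mitochondria, which export its carbon as citrate. ATP citrate lyase (Acly) splits citrate to acetyl-CoA, acetyl-CoA carboxylase (Acaca, and Acacb on the mitochondrial surface) makes malonyl-CoA, and fatty acid synthase (Fasn) builds palmitate from it with NADPH, part of which comes from malic enzyme (Me1). ChREBP, the product of Mlxipl, activates many of these genes when glucose is plentiful, the liver-type pyruvate kinase gene Pklr among them, and SREBP-1c does so in response to insulin. Thrsp (Spot 14) encodes a small nuclear and cytosolic protein without a catalytic function of its own, which is known for its response to thyroid hormone and carbohydrate and usually accompanies the enzymes of the pathway.

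Thrsp stood apart from the enzymes. It was 3.09-fold higher in the squalene pool, while the other 7 genes lay between log2 ratios of -0.44 (Mlxipl) and 0.40 (Acacb). Fasn, Acly and Acaca, which carry out the central steps, differed by no more than 0.14 on the log2 scale, though Acaca was too dim to be read well. Of the 8 genes, 1 was higher beyond a log2 ratio of 0.5, 0 were lower and 7 lay between. Over all 12394 genes 21.5% were higher and 19.8% lower beyond that limit, but many of these are dim. Over the 6460 well-read genes, meaning those that reached the array median on both arrays (39.9 for control and 41.4 for squalene), a set that holds 7 of the 8 members, the shares were 7.85% and 6.35%. A count of 1 in 8 is therefore near the background, and what sets Thrsp apart is the size of its ratio. The median log2 ratio was 0.20 over the 8 genes and 0.14 without Thrsp, against 0.01 over all genes.

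The start regions of 3 of the genes are shown as examples: Thrsp, which was much higher, Fasn, which was nearly level, and Pklr, whose probe sets differed in sign. They come from RefSeq on GRCm38.p6, as windows from 250 bases before the start to 50 after it, written 5′ to 3′ along the gene's own strand. Windows were listed for all 8 genes, 11 windows in all. Capitals mark the word CCAAT or its reverse complement ATTGG, the core of sites bound by NF-Y, and in Pklr also the run described below.
Thrsp, chr7:97417501-97417800, minus strand: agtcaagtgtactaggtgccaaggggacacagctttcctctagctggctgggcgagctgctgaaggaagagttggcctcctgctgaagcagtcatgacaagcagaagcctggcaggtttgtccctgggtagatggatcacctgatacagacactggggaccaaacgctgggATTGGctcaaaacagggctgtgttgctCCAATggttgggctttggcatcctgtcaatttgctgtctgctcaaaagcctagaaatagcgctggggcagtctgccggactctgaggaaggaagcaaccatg
Fasn, chr11:120824498-120824797, minus strand: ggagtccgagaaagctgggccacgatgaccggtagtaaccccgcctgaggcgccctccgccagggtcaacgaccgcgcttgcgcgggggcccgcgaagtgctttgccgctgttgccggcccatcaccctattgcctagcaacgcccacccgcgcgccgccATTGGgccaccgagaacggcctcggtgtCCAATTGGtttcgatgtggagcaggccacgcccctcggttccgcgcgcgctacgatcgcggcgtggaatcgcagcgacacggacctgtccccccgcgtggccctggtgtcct
Pklr, the second of its 2 listed starts, chr3:89136373-89136672, plus strand: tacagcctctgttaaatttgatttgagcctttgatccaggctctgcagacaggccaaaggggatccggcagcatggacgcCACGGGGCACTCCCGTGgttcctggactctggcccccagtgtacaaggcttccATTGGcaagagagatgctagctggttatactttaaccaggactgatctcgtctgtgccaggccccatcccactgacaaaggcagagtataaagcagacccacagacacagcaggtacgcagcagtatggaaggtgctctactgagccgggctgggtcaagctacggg

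In Thrsp the word lay at -79 (as ATTGG) and -52 (as CCAAT) from the start, counting the last base before the start as -1 and giving the first base of the word. In Fasn it lay at -90, -62 and -59, and the last pair overlap in CCAATTGG. Thrsp and Fasn thus share this feature close to the start, although their transcripts differed in ratio. It is a common word, present in 37.4% of the 32851 windows of the table and in 7 of the 11 windows here, which belong to 7 of the 8 genes. The E-box CACGTG is the core that ChREBP and other basic helix-loop-helix proteins bind. It was found in 1 of the 11 windows, of Mlxipl itself, at -98, and in 7.15% of all windows. Paired E-boxes 5 bases apart (CACGTGNNNNNCACGTG) were in none of the 11 windows and in 0 of all 32851. The looser form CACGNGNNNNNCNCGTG, searched after the windows were read, was in Pklr at -170, as CACGGGGCACTCCCGTG, and in 0.0457% of all windows. The SRE-1 core TCACNCCAC, a word bound by SREBPs (1.24% of all windows), was in 1 of the 11, the second listed start of Mlxipl, at -136. The DR4 word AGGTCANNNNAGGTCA, of the kind bound by thyroid hormone and LXR receptors (0.0152%), was in 0 of the 11. GC boxes (GGGCGG, 35.7% of all windows) were in 3 of the 11, of Acly, Me1 and Mlxipl. Words were searched on both strands, and the windows are too short to hold any elements farther upstream.

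Thrsp was read by a pair of probe sets, both bright. The brighter gave 676.9 for control and 2094.9 for squalene, a log2 ratio of 1.63. The other gave 237.9 and 759.7, a log2 ratio of 1.68. The ratios differed by 0.05, although the signals of the probe sets themselves are not comparable with each other. As a measure of error, the SD of the log2 ratio between probe sets of the same gene was 0.18 in the brightest tertile of signals, where both of these lie. It was 0.32 in the middle tertile, 0.90 in the dimmest and 1.66 where both signals were below the array median. These SDs hold differences between probe sets only, and the spread between mice is not measured here.

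Among the 6460 well-read genes, Thrsp ranked number 4 from the highest. The submitters' screen at a log2 ratio of 1.5 was passed upwards by 0.0774% of these genes (5 of 6460) and by 7.86% of all genes, most of them dim. Within the brightest tertile of signals, 3 of 2632 genes had a ratio as large in size, Thrsp included. The well-read genes nearest to it in ratio were Ppargc1a (1.56), which encodes the transcriptional coactivator PGC-1 alpha, Oxsr1 (1.47), a stress-responsive kinase, Wdr36 (1.43) and Lpin1 (1.42), a phosphatidate phosphatase of triglyceride synthesis. In the control pool Ppargc1a (74.8), Oxsr1 (50.2) and Wdr36 (69.3) were dim, whereas Lpin1 read 780.5. The nearness to Thrsp is likeness in 1 ratio, since 2 arrays give no pattern over samples.

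**Figure D1:**
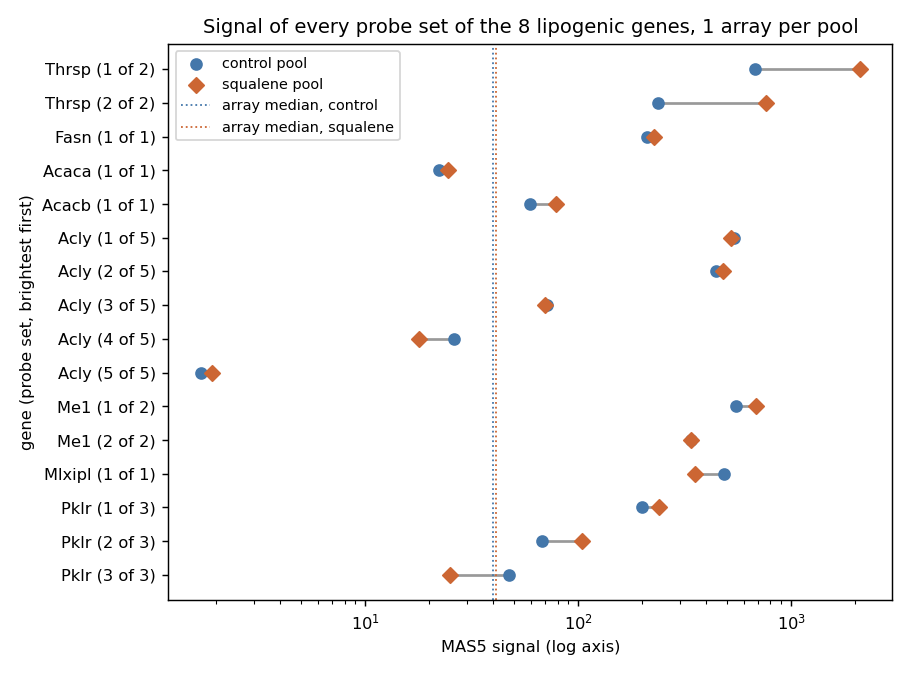
MAS5 signal (x axis, log scale) of each of the 16 probe sets of the 8 genes (y axis, brightest first within a gene), with circles for the control pool, diamonds for the squalene pool and dotted lines at the array medians of 39.9 and 41.4. Both Thrsp probe sets show a wide gap (676.9 to 2094.9 and 237.9 to 759.7), while most other pairs nearly touch and the dimmest Pklr probe set runs the other way (47.1 to 24.9).

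**Figure D2:**
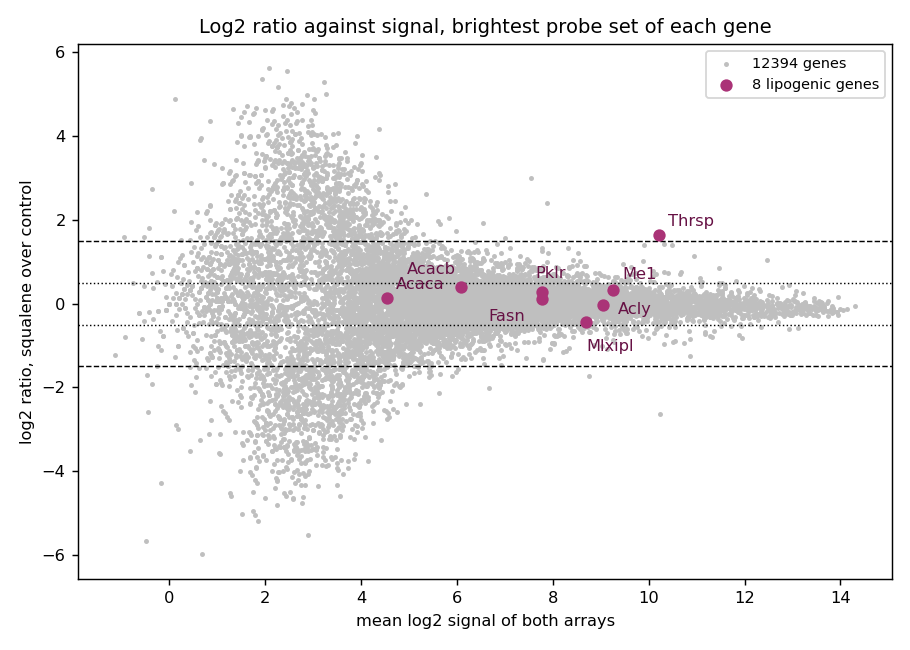
Log2 ratio of squalene over control (y axis) against mean log2 signal of both arrays (x axis) for 12394 genes in grey and the 8 lipogenic genes in purple, with dotted lines at 0.5 and dashed lines at 1.5 in either direction. Thrsp, at 1.63, lies above the upper dashed line where the cloud is narrow, and the other 7 genes lie within the dotted lines.

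Of the enzymes that turn citrate into palmitate, Acly and Fasn were nearly level. Of the carboxylases, Acaca was too dim to be placed, and Acacb was well read but in the dimmest tertile of signals. On its brightest probe set Acly read 537.3 for control and 522.7 for squalene (-0.04). Its next probe sets gave 442.6 and 477.9 (0.11) and 71.2 and 70.2 (-0.02), and the remaining pair, below the array median on both arrays, gave 26.1 and 17.8 (-0.55) and 1.7 and 1.9 (0.16). The 3 readable probe sets of Acly therefore lay close to 0 on both sides, and each was smaller in size than the SD of its signal band. Of the 5, 3 carry the x suffix that Affymetrix gives to probe sets whose probes may also bind other transcripts.

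Fasn had 1 probe set, which read 211.4 for control and 226.9 for squalene (0.10). Of the 2518 genes in the same tertile of signals, 78.2% had a ratio at least as large in size. Thrsp and Fasn thus differed in log2 ratio by 1.53 between themselves, although both are textbook products of the same nutritional response.

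Acaca, which makes the malonyl-CoA used for synthesis, read 22.2 and 24.4 on its only probe set, below the median of both arrays. Its log2 ratio of 0.14 stands where the SD between probe sets is 1.66, so a change of several-fold could not have been told apart from none. Acacb, whose malonyl-CoA restrains the entry of fatty acids into mitochondria, read 59.3 and 78.3 (0.40), the highest ratio after Thrsp. It too rests on 1 dim probe set, and 54.5% of the genes of its signal band had a ratio at least as large in size.

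Me1 was read as higher by one probe set and as level by the other. The brighter gave 548.7 for control and 685.7 for squalene (0.32), the other 338.2 and 338.8 (0.00). Their gap of 0.32 is as large as the ratio itself. The Me1 result is thus within the disagreement between its own probe sets.

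The regulator and the pyruvate kinase gene read differently. Mlxipl read 482.2 for control and 354.6 for squalene, 1.36-fold lower (log2 ratio -0.44) and the lowest of the 8 genes. This is beyond the SD of 0.18 of its signal band but rests on 1 probe set, and 7.94% of the well-read genes were lower still. Pklr, which ChREBP is known to activate, read 199.7 and 240.5 on its brightest probe set (0.27) and 67.6 and 103.8 on the next (0.62). Its dimmest probe set gave 47.1 and 24.9 (-0.92), with the squalene signal below the array median. The Pklr probe sets spanned 1.54 in log2 ratio, the widest range among the 4 genes with more than 1 probe set. Both brighter ones reached the array median on both arrays and lay above 0, the first by less than the SD of 0.32 of its band. The dimmest, below 0, lies where the SD is 0.90. The sources used here do not say which of its transcripts each probe set reads.

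Over all 16 probe sets, 11 lay above 0 and 5 below. Beyond a log2 ratio of 0.5, 3 were higher, both of Thrsp and the second of Pklr, and 2 were lower, the dimmest of Pklr and the fourth of Acly. Shares over all probe sets were not computed, so these counts only describe the 16.

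**Figure D3:**
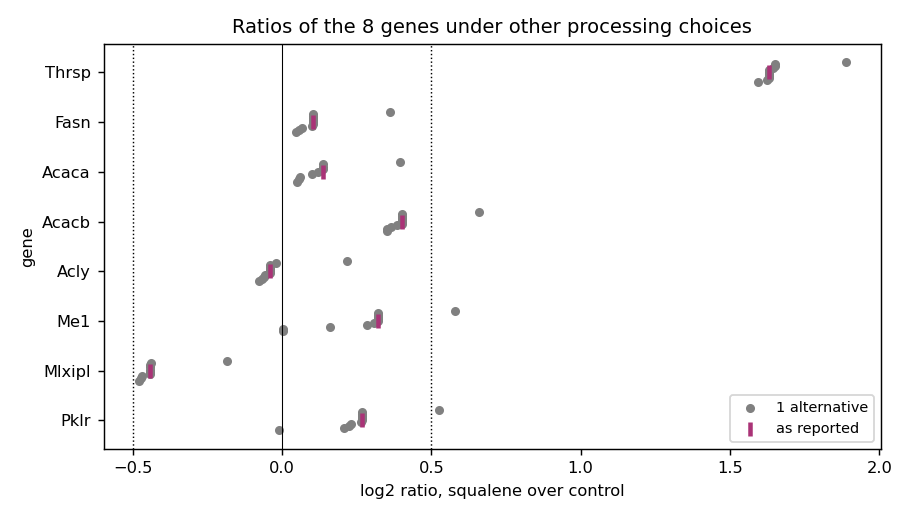
Log2 ratio (x axis) of each of the 8 genes (y axis) as reported (purple bars) and under each other processing choice (grey points), with dotted lines at 0.5 in either direction. Thrsp stays between 1.59 and 1.89, whereas Me1 and Pklr reach 0.00 and -0.01 when another probe set or a mean of probe sets is used, and the point farthest to the right in each row is the scaling to the spike-ins.

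The genes around these 8 were taken from 6 lists of the pathway and its control, with 70 genes of which 63 were well read. Of those 63, 5 were higher beyond 0.5, 3 were lower and 55 lay between, and 0 passed the limit of 1.5. The shares over all well-read genes were 7.85% higher and 6.35% lower, and the median of the 63 was -0.01. Apart from Scd1 and Elovl3, these 63 differed by less than 1.0 on the log2 scale, and the highest, Scd1 at 1.03, lay below Thrsp at 1.63. The directions given here hold for the arrays as deposited. The 18 hybridization spike-ins, RNAs added in known amount, were without exception dimmer on the squalene array (median log2 ratio -0.26), and scaling to them would raise every ratio and list median by 0.26.

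Of 10 well-read members of carbon supply, 1 was higher beyond 0.5 and 0 lower, with a median of 0.07. Pdk4, a kinase that restrains pyruvate dehydrogenase, was lower (73.0 and 40.2) and left that set because its squalene signal lay below the median. Acss2, the cytosolic enzyme that makes acetyl-CoA from acetate, read 516.5 and 737.3 (0.51) and 0.39 on its other probe set, and after centring on the median it was at 0.48, so its place beyond 0.5 is not firm. Mdh1, a cytosolic malate dehydrogenase, was at -0.32, but its other probe sets ran from -0.45 to 1.70 and the mean over all 4 was 0.23. Mlycd, which degrades malonyl-CoA, at -0.25 and Pdha1 of pyruvate dehydrogenase at 0.23. The citrate carrier gene Slc25a1 was not analysed here.

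The list of NADPH supply held 9 other genes. Among them Pgls, Tkt, Taldo1, Rpia and Rpe belong to the pentose phosphate pathway but make no NADPH themselves. Of the 9, 0 lay beyond 0.5 in either direction. Below 0 lay 7 of the 9, against 48.8% of all well-read genes, and their median was -0.30. Pgd, a dehydrogenase of the pentose phosphate pathway, read 309.1 and 229.7 (-0.43). All 4 of its probe sets lay below 0, from -0.91 to -0.23. The other genes of the list whose enzymes make NADPH were near level. Idh1 was at -0.03 (0.29 on its other probe set), H6pd at -0.08 and Nnt at 0.01 (other -0.03). The median of the list is therefore not that of the NADPH-making enzymes alone. Tkt, the transketolase, was at -0.39 and at -0.13 on its other probe set. Pgls, a lactonase of that pathway, was at -0.32, while Rpe (-0.46) had other probe sets at 0.22 and 3.41. Scaling to the spike-ins would leave the median of this list just below 0. G6pdx was not analysed here.

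Desaturases and elongases, which act on the palmitate made, held the largest ratios of the 6 lists among well-read genes, in both directions. Scd1, the main stearoyl-CoA desaturase of liver, had a log2 ratio of 1.03, with 0.81 on its other probe set, and Elovl3, an elongase of very long chains, had -1.24. Elovl6, which elongates palmitate, read 122.4 and 179.7 (0.55) on the brighter and -0.03 on the other probe set. Scd2 was at -0.61, with -0.72 and 0.10 on its other probe sets. Of 13 well-read members, 2 were higher, 2 lower and 9 lay between.

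Glycolytic genes upstream of Pklr were level, with 0 of 9 beyond 0.5 and a median of 0.03. Pgk1, phosphoglycerate kinase, was at 0.34 and at 0.35 and 0.82 on its other probe sets. Gckr was at 0.30, and the fructokinase gene Khk and the glucose transporter gene Slc2a2 were at 0.22 each.

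The regulators went both ways. Srebf1, the gene of SREBP-1, had 1 probe set, which read 462.4 for control and 307.9 for squalene, 1.50-fold lower (-0.59). Mlx, the obligate partner of ChREBP, read 137.6 and 193.1 (0.49), with 0.66 on its other probe set, opposite in sign to Mlxipl. Usf2 (-0.37) and Thra, a thyroid hormone receptor gene (0.51), each had a second probe set of the opposite sign. Of 13 well-read members, 1 was higher, 1 lower and 11 lay between, with a median of -0.13 that spike-in scaling would turn positive.

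Among partners and kinases of acetyl-CoA carboxylase, Mid1ip1, the paralogue of Thrsp whose product binds the carboxylase, read 197.6 and 171.6 (-0.20, or 0.06 after scaling to the spike-ins). It was thus near level while Thrsp was 3.09-fold higher. Prkag2, a subunit gene of the AMP-activated kinase that inactivates the carboxylase, was the 1 member of 9 beyond 0.5. It read 60.9 and 110.4 (0.86), with 0.11 and 0.74 on its other probe sets. Its ratio is smaller than the SD of 0.90 between probe sets in the dimmest tertile of signals, where it lies. Camkk2, in the same tertile, was at 0.38 (others 1.77 and 2.58), Trib3 at 0.35 (other 0.69) and Prkab1 at 0.33 (other -0.19). The list had a median of 0.29. Of its 9 well-read members 7 lay above 0 and 2 below, where 48.8% of all well-read genes lay below. Mid1, at 13.8 and 1.5, was below the median on both arrays.

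Other genes known to respond to the same signals as Thrsp showed no common direction. Of those described as targets of ChREBP, Rgs16 was at 2.41, Khk at 0.22, Gpd1, a glycerol phosphate dehydrogenase, at -0.43 (others -4.88 to -0.33), Txnip, an arrestin-like protein induced by glucose, at -0.55 and G6pc, the glucose-6-phosphatase gene, at -0.80. Txnip read -0.65 on its second probe set. The 5 well-read genes counted 1 higher, 2 lower and 2 between, where 7.85% of all well-read genes were higher and 6.35% lower. Of genes of thyroid hormone action, Dio1, a deiodinase gene induced by the hormone in liver, read 1580.9 and 1325.8 (-0.25). Klf9 was at -0.05 (others -0.91 to 0.00) and Gpd2 at 0.06. Of the 4 well-read members 1 (Thra, above) was higher and 0 were lower, beside the same shares over all well-read genes. Dio1 thus lay on the other side of 0 from Thrsp, though at 0.00 after scaling to the spike-ins.

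**Figure D4:**
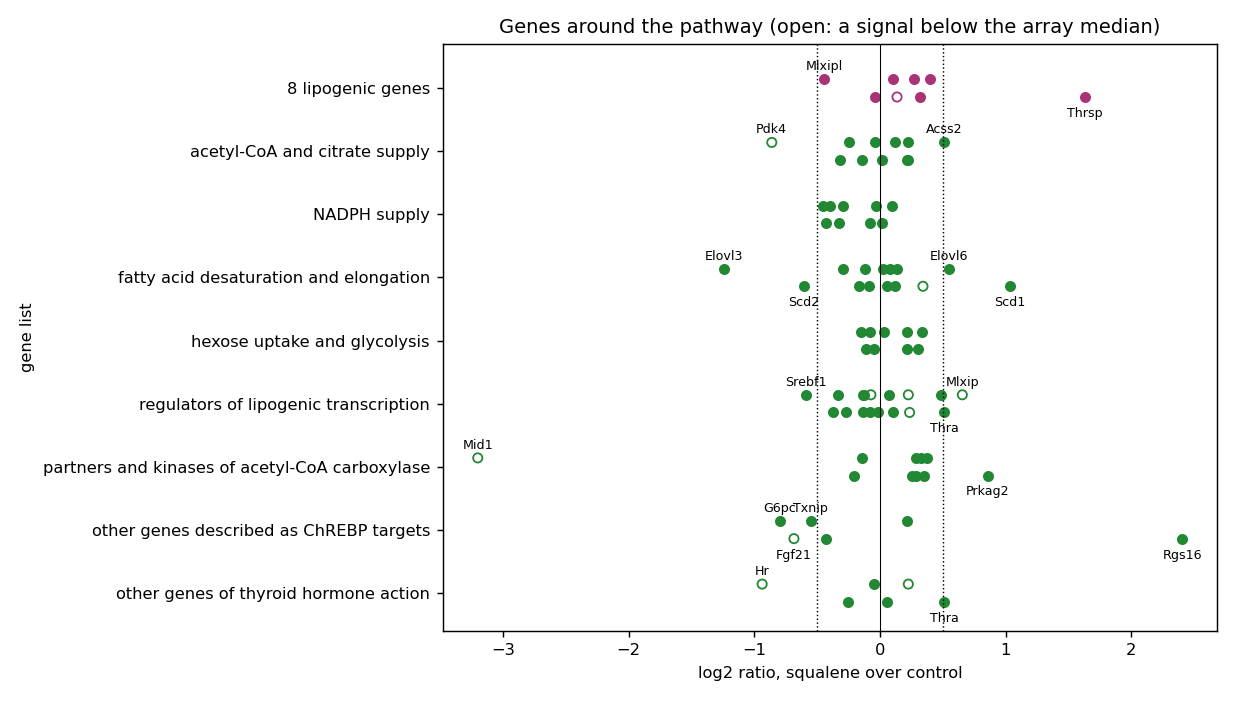
Log2 ratio of squalene over control (x axis) of the 8 lipogenic genes (purple) and of the genes of 8 other lists (green), 1 point per gene, with open points where a signal lay below the array median, dotted lines at 0.5 in either direction and names for genes beyond them and for Mlxipl. Thrsp at 1.63 lies to the right of every gene of the 6 pathway lists, and among the other lists only Rgs16, at 2.41, is higher.

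Circadian genes differed between the same pools, and transcripts of the liver that follow feeding are known to vary through the day. Of all 17 measured members, 10 were higher beyond 0.5 and 3 lower, against 21.5% and 19.8% of all genes, with a median of 0.70. The 3 lower were Arntl, a core clock activator (66.2 and 11), its relative Npas2 (37.9 and 2.9) and Per1 (59.9 and 36.9), all below the array median in the squalene pool. Npas2 was below it in the control pool too and was at 3.58 on its other probe set. Per2, among the higher at 2.04, was at -2.41 on its other probe set. Of the 11 well-read members 7 were higher, against 7.85% of well-read genes. Usp2, a deubiquitinase, read 65.5 and 525.3, and the clock output gene Dbp was at 1.39 and Cry1 at 0.96, while Hlf was at 1.04 on one probe set and 0.11 on the other. Their part in the Thrsp ratio was not tested, and hour of collection and treatment cannot be told apart here.

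The tissue was checked with marker genes, since several of the 8 genes are also strong in fat, Acacb in muscle and Pklr in red cell precursors. In a pool of livers, fewer cells of a type and less RNA per cell cannot be told apart. All 8 hepatocyte markers were bright and within 0.5, with summed signals of 115401 for control and 109507 for squalene. Of 6 fat markers, 5 were below the median on both arrays, with Adipoq at 1.0 and 16.7 and Lep at 1.6 and 5.3. The sum was 196.8 and 205.9, nearly all of it Fabp4 (184.7 and 164.3), which other cell types also make. All 6 skeletal muscle markers were below the median on both arrays, with sums of 50 and 26.5. Of 4 erythroid markers 3 were, and Alas2 read 102.6 and 73.9, with sums of 152.9 and 139.7. Of 10 macrophage and Kupffer cell markers, 6 were lower beyond 0.5 and 0 higher, against 19.8% and 21.5% of all genes. Of the 8 well-read ones 5 were lower, against 6.35%, and the sums over all 10 were 5526.3 and 3599.7. Their part in the ratios of the 8 genes was not tested.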

How the data were processed

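Liver RNA of 2 pools was measured on 1 Affymetrix mouse array each. The authors deposited 1 linear intensity per probe set, computed with MAS5 per the submitters' processing notes. MAS5 subtracts an estimate of stray signal from each probe, which makes low signals unstable. Both arrays had a 2%-trimmed mean of 200.1, as seen in the values. Of 22690 probe sets, 64 array controls were left out of the medians, the spread and the counts of probe sets. They stayed in the choice of the brightest probe set of a gene, so that a control represents Gapdh. Of the probe sets other than controls, the platform annotation gave 1 symbol to 20380, several to 691 and none to 1555. By Entrez number, 20351 matched RefSeq and 0 symbols changed.

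The log2 ratio of squalene over control was taken without a pseudocount or a filter. Genes beyond 0.5 were counted, and beyond 1.5, the submitters' limit. With 1 array per group, no p-values were computed, and the number of arrays limits the precision. Spread was the pooled SD of log2 ratios between probe sets of the same gene, by signal band. The counting and spread steps were tested on simulated data.

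The members and lists were chosen with earlier results of these data known. Named were all 8 members, up to 4 genes per list with the largest ratio among well-read genes, 8 fixed genes where measured, and the 4 genes nearest to Thrsp in ratio. Further genes that appear in the text only to show how a list reads were not recomputed under the alternatives. Of the marker lists, only genes that bear on the tissue check were named, some of them (Adipoq, Lep) chosen after their values were seen. Endothelial, stellate and cholangiocyte markers were also read. Their medians were -0.09 over 6, -0.03 over 6 and -0.76 over 4 genes, the last all below the median on both arrays.

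Alternatives were other choices of probe set, centring, quantile normalization, a loess fit (R 4.3.3, limma 3.58.1), spike-in scaling, a pseudocount of 3, a floor, 2 filters and limits of 0.3, 1.0 and 1.5. Other steps used Python 3.11.15, numpy 2.4.6, pandas 2.3.3 and matplotlib 3.10.9. No genome build is named for the arrays in the sources used here.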

Additional observations from a re-analysis of the deposited data

How the results depend on the processing

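Each ratio was recomputed under up to 11 alternatives. Scaling to the spike-ins moved the Thrsp log2 ratio to 1.89, the median of the 8 genes to 0.46 and the count beyond 0.5 to 4, all higher (Thrsp, Acacb, Me1 and Pklr), and turned Acly to 0.22. With a limit of 0.3 the count was also 4, 3 higher and 1 lower. Under the other alternatives Thrsp stayed between 1.59 and 1.65, the median between 0.12 and 0.27, and the count at 1. With the probe set of smallest ratio, 6 genes outside the 8 changed sign, among them 3 with a reported ratio beyond 0.5: Elovl6 to -0.032, Scd2 to 0.10 and Thra to -0.36. The other 3 were Prkab1 (-0.19), Rpe (0.22) and Usf2 (0.26). With the mean of probe sets Pklr (-0.01), Mdh1 (0.23) and Rpe (1.06) did. Over the ratios of the named genes other than Thrsp, 16 of 463 values changed sign, and 42 moved by more than the SD between probe sets at their signal without turning a ratio beyond 0.5. Many of the 463 could not change sign, so 16 of 463 is no measure of how firm the signs are. A pseudocount never turns a sign (0 of 43). The 2 filters (0 of 42 each) and the floor (0 of 43) return the reported value for a well-read gene. Acaca had no value under either filter on low signals, and Mlxipl none over plain-suffix probe sets. Signal over background limits Acaca, Acacb and the dimmer probe sets of Acly and Pklr. No paired analysis was possible because each group has 1 array. Leaving out an array was not possible either.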
